A study of Rattus norvegicus with 24 samples.

Results

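The genes described here encode 6 subunits of the receptors for γ-aminobutyric acid (GABA) in rat dorsal root ganglion (DRG) neurons. They are Gabra2, Gabra5, Gabrb2 and Gabrg1, which encode the α2, α5, β2 and γ1 subunits of GABA-A receptors, and Gabbr1 and Gabbr2, which encode the subunits of the GABA-B receptor. The genes were chosen by name, with earlier results of these data known, from 32881 genes shared by all count files. Of those genes, 21 encode a GABA-A, GABA-rho or GABA-B receptor subunit. The DRG hold the cell bodies of the sensory neurons that innervate skin, muscle and viscera. In male Sprague-Dawley rats, spared nerve crush (SNC) injured the tibial and common peroneal branches of the left sciatic nerve and left the sural branch intact, whereas sham surgery only exposed the nerve. All rats of these groups had received fluorescent dyes into the nerve branches weeks before surgery, and labelled neurons of the L4 and L5 DRG were picked by hand and sequenced as single cells. The groups were labelled sham (4 DRG samples, 215 cells that passed quality control), SNC 1 d (4 samples, 238 cells), SNC 3 d (3 samples, 237 cells) and SNC 7 d (5 samples, 240 cells). A further 7 libraries (503 cells), labelled sham at 0, 1, 3 or 7 days, were missing from the study's list of dye-labelled DRG samples and are called added sham. Neither the dye of a cell nor the rat of a sample was given with the counts, so neurons with crushed and uncrushed axons were pooled and the DRG sample was the replicate.

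GABA-A receptors are chloride channels built of 5 subunits, most often α and β subunits, between which GABA binds, together with a γ subunit. DRG neurons keep a high internal chloride concentration, so that opening these channels depolarizes them, and on their central terminals in the spinal cord this contributes to presynaptic inhibition. GABA-B receptors are obligate heterodimers, in which the Gabbr1 subunit binds GABA and the Gabbr2 subunit couples to inhibitory G proteins that act on calcium and potassium channels. Levels below are counts of unique molecular identifiers (UMIs) scaled to the total count of the cells, written as CPM. Each UMI marks the 3′ end of an mRNA molecule, so a level does not depend on transcript length.

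Of 1464 cells, 1433 passed quality control, and samples held 4002503 to 40732975 UMIs. Labels gave no rat for any sample, so the p-values below measure the spread between samples, part of which may be technical. The labelled sham samples were not free of injury-type neurons. Sprr1a, a gene induced in neurons with a damaged axon, reached at least 100 CPM in 22.9% to 79.2% of the cells of the 4 labelled sham samples, in 20.8% to 64.6% of the cells of the SNC samples and in none of the 503 added sham cells, which allows a share of up to 0.596%. Sham sample Xin (24 cells) had both the fewest UMIs in all and the 79.2%. The labels gave 4 indirectly and 20 directly injured cells for SNC 7 d sample 19-1 and the reverse for 19-2, whereas the Sprr1a-high share was 20.8% in 19-1 and 58.3% in 19-2. Summed glial markers had medians of 1038 to 1257 CPM over the 5 groups, against 6148 to 7755 CPM for summed neuronal markers. Markers of blood vessels, immune cells and fibroblasts summed to medians of 9.43 to 29.5 CPM, with the endothelial marker Cldn5 at 0 in every group.

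The GABA-B subunits were the most widely detected of the 6 genes. In the 930 labelled cells, Gabbr1 was detected in 908 (97.6%; pooled level 142 CPM) and Gabbr2 in 901 (96.9%; 144 CPM). Gabra2 was detected in 843 cells (90.6%; 81.1 CPM) and Gabra5 in 627 cells (67.4%; 57.0 CPM). Gabrg1 was detected in 459 cells (49.4%; 25.8 CPM). Gabrb2 was close to absent from these counts, with 67 UMIs in 20 cells (2.15%; 0.259 CPM), 16 of which lay in neurofilament-type clusters, and 12 of these UMIs lay in a single cell. Gabra2 was the leading α subunit gene in these neurons, and no UMI of Gabra6 or Gabrd, which encode the α6 and δ subunits, was found.

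The subunit genes differed in which neurons carried them. Labelled neurons fell into 10 clusters, which were formed without the GABA receptor genes, and each cluster was named from marker genes, so that a name ends in "-like". Clusters of the neurofilament type (NF-like, mainly large, myelinated neurons) were cluster 3 (91 cells, led by Shox2 and Ntng1) and cluster 4 (86 cells, S100a16 and Kcnv1). Peptidergic nociceptor-like clusters were PEP1-like (186 cells), PEP2-like (193 cells) and PEP3-like (114 cells). The others were NP-like (nonpeptidergic, 60 cells), 2 SST-like clusters of the itch type (cluster 5 with Il31ra and Osmr, 72 cells, and cluster 7 with Sst and Nppb, 57 cells), cold-like (Trpm8, 29 cells) and cluster 8 (42 cells), which stayed unnamed because 8 of 10 glial markers were high in it. Levels by cluster are means over the samples in which the cluster had 3 or more cells, and are given as a description, without a test.

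Gabrg1 was the member most concentrated in a single cluster. Its level was 109 ± 43.1 CPM (SD, n = 12 samples) in cluster 3, with a range of 53.8 to 218 CPM, and 94.5% of the cluster's cells held a UMI. In the other 9 clusters its mean ran from 2.53 CPM (NP-like) to 12.8 CPM (both SST-like clusters), with 12.7 ± 13.5 CPM in the other NF-like cluster. Cluster 3 stood above the rest of the same sample's cells in 12 of 12 samples, and above cluster 7, the next in order, in 7 of 7 shared samples by 98.9 ± 52.3 CPM. The lower 9 clusters did not differ from their neighbours in the order by more than their spread.

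Gabra5 marked both NF-like clusters. Its level was 129 ± 46.5 CPM in cluster 4 (n = 15) and 115 ± 54.9 CPM in cluster 3 (n = 12), which did not differ beyond their spread. The cold-like cluster followed at 52.8 ± 29.3 CPM (n = 5), below cluster 3 in 4 of 5 shared samples, then PEP1-like at 37.1 ± 20.2 CPM (n = 16) and NP-like at 28.5 ± 30.1 CPM (n = 8). The unnamed cluster 8 (25.9 CPM), PEP3-like (18.9 CPM), SST-like cluster 5 (16.1 CPM) and PEP2-like (15.9 CPM) were lower, and SST-like cluster 7 was the lowest at 2.97 ± 3.14 CPM (n = 8). Only the step from cluster 3 to the cold-like cluster exceeded the spread.

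Gabra2 was spread more evenly, and no neighbours in its order differed beyond their spread. Cluster 3 was highest at 144 ± 46.6 CPM, followed by SST-like cluster 7 at 110 ± 46.8 CPM, NF-like cluster 4 at 106 ± 44.7 CPM and SST-like cluster 5 at 98.2 ± 23.5 CPM. NP-like (72.2 CPM), PEP3-like (63.3 CPM), cold-like (54.8 CPM) and PEP2-like (51.2 CPM) lay between, and the unnamed cluster 8 (37.6 CPM) and PEP1-like (31.8 ± 17.4 CPM, n = 16) were lowest. PEP1-like was below the rest of its sample in 16 of 16 samples. Gabrb2 had 1.46 ± 2.01 CPM in cluster 3, where 17.6% of cells held a UMI, at most 0.272 CPM in 3 other clusters and 0 in the remaining 6.

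The GABA-B subunits did not follow the same order as each other. Gabbr1, the GABA-binding subunit, was highest in NF-like cluster 4 at 195 ± 45.1 CPM (n = 15) and ran only from 113 CPM (SST-like cluster 7) to 149 CPM (PEP1-like and cluster 3) elsewhere. Cluster 4 was above PEP1-like, the next in order, in 13 of 15 shared samples by 45.8 ± 51.8 CPM, which was within the spread. Gabbr2, the G protein-coupling subunit, was highest in NP-like neurons at 246 ± 73.5 CPM (n = 8) and in SST-like cluster 7 at 212 ± 44.3 CPM (n = 8), each above the rest of its sample in 8 of 8 samples. These 2 clusters did not differ beyond their spread (NP-like higher in 3 of 5 shared samples, by 12.0 ± 68.3 CPM). Gabbr2 levels in the NF-like clusters were lower. It was 170 ± 49.0 CPM in cluster 4 and 158 ± 22.3 CPM in cluster 3, and lowest in PEP2-like (94.4 ± 32.3 CPM) and PEP1-like neurons (90.0 ± 21.6 CPM, below the rest in 16 of 16 samples). With clusters joined into types, NF-like neurons had the highest mean of Gabra2 (117 CPM), Gabra5 (120 CPM), Gabrb2 (0.643 CPM), Gabrg1 (56.7 CPM) and Gabbr1 (175 CPM), and Gabbr2 was highest in NP-like neurons, except with coarser clusters (resolution 0.3), where it was highest in SST-like neurons (180 CPM).

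**Figure D1:**
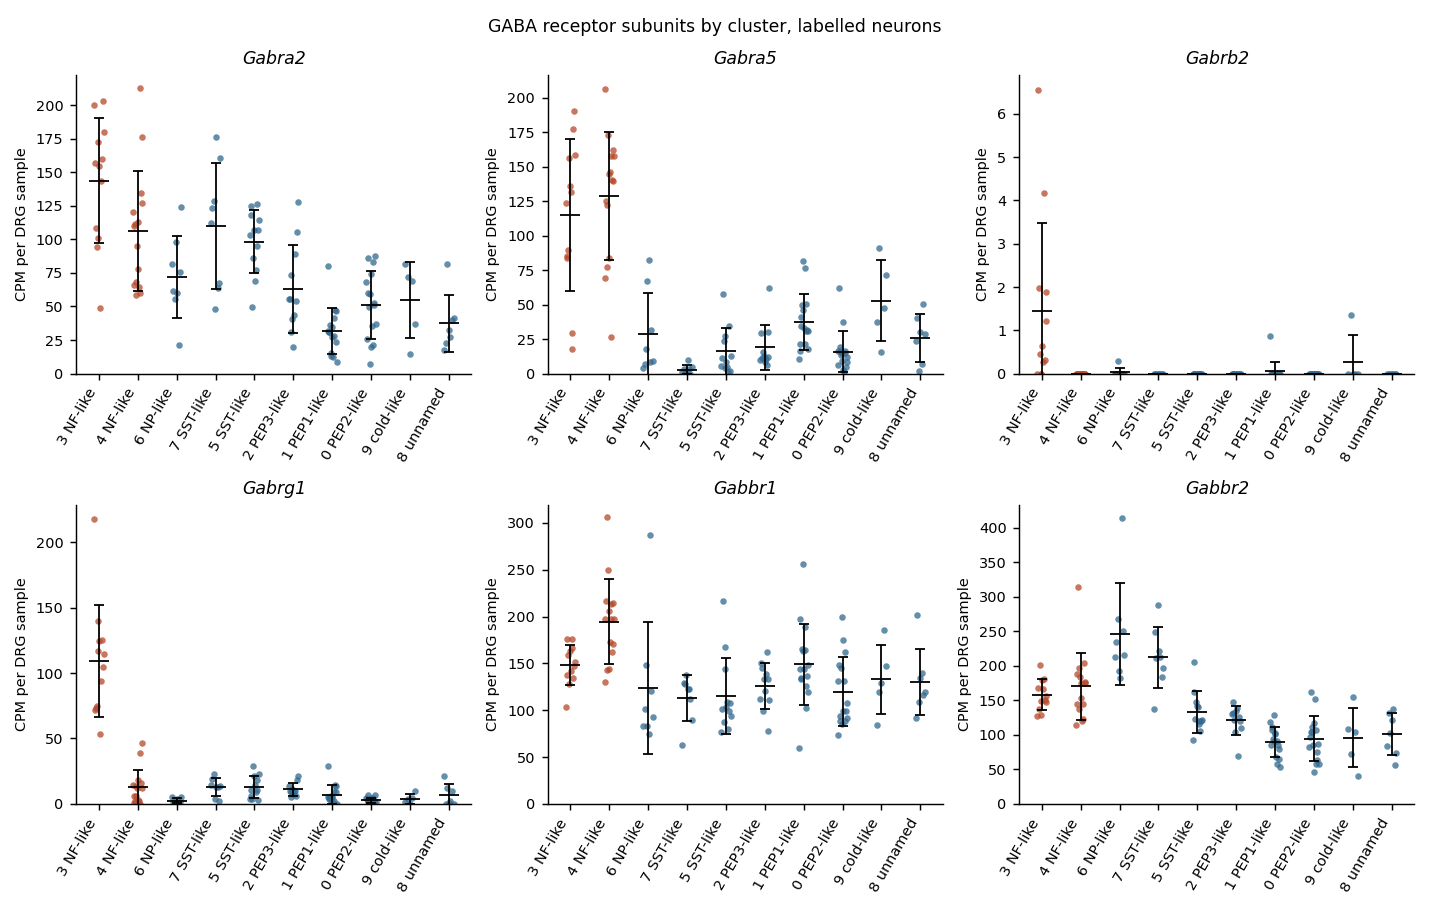
Level of each of the 6 genes (CPM, y axis) in the 10 clusters of labelled neurons (x axis). Points are samples in which the cluster had 3 or more cells, bars are means with SD, and NF-like clusters are orange. Gabrg1 stands high only in cluster 3 (109 CPM), Gabra5 in clusters 3 and 4 (115 and 129 CPM), and Gabbr2 is highest in the NP-like cluster (246 CPM).

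Subunit genes outside the 6 were also high in cluster 3. Gabra4 (α4) was at 15.4 ± 8.60 CPM there, above the rest of the sample in 12 of 12 samples. Gabrb1 (β1) was highest in cluster 3 (37.5 ± 23.2 CPM) and in PEP2-like neurons (19.6 ± 9.51 CPM, n = 16). Gabra3 (α3) was highest in the unnamed cluster 8 (5.97 CPM) and the cold-like cluster (5.70 CPM). Cluster 3 also had the deepest cells, with a median of 526885 UMIs, and CPM corrects for depth only in the mean.

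Likeness over single cells was measured as Pearson's r of log counts per 10000 over the 930 labelled cells, among 12989 genes, and is descriptive because cells share samples and depth. Gabrg1 was most like Shox2 (r = 0.700), Mab21l2 (r = 0.700) and Pappa2 (r = 0.674), and Shox2 is a leading gene of cluster 3. Among the genes most like Gabra5 were Cpne6 (r = 0.600) and Ecrg4 (r = 0.587). Gabbr2 was most like Ubash3b (r = 0.601), Parm1 (r = 0.579) and the unnamed gene AC126641.1 (r = 0.571). Gabbr1 was most like AC094643.2 (r = 0.513), Dnm1 (r = 0.501) and Gnai2 (r = 0.481), which encodes an inhibitory G protein α subunit. Gabra2 was most like Dnm3 (r = 0.495), Necab3 (r = 0.492) and Atp8a2 (r = 0.492). Between members, r was 0.426 for Gabra5 with Gabrg1, 0.415 for Gabra2 with Gabrg1 and 0.319 for Gabbr1 with Gabbr2, and ran from -0.0619 (Gabra2 with Gabbr1) to 0.235 for the other pairs. Gabrb2 was detected in too few cells to be included.

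Added sham neurons were clustered apart, into 7 clusters, and again Gabra2, Gabra5, Gabrb2 and Gabrg1 were highest in the NF-like cluster (97 cells). There, Gabra2 was at 98.0 ± 38.1 CPM, Gabra5 at 27.9 ± 8.32 CPM, Gabrg1 at 35.3 ± 9.13 CPM and Gabrb2 at 2.88 ± 2.21 CPM (n = 5 libraries each), each above the other cells of the library in 5 of 5 libraries. For Gabra2, however, the NF-like cluster was above the SST-like cluster, the next in order, in only 2 of 4 shared libraries, with a mean difference of -7.31 CPM. Gabrb2 was detected in 44 of the 503 added sham cells, 31 of them NF-like. Libraries S1 and S2 held no NF-like cells. For the GABA-B subunits the NF-like cluster was among the lowest, at 305 ± 36.6 CPM for Gabbr1 and 318 ± 16.0 CPM for Gabbr2, against maxima of 572 ± 185 CPM for Gabbr1 (unnamed cluster 6, 17 cells) and 446 ± 54.5 CPM for Gabbr2 (unnamed cluster 4, 57 cells).

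The next question was whether the 6 genes differed after SNC. Counts were summed over the cells of each DRG sample, so that cells with more UMIs weigh more, and in such sums fewer neurons of a type and less RNA per neuron cannot be told apart. None of the members passed the test at any time (edgeR quasi-likelihood test, Benjamini-Hochberg adjusted p of 0.05), and neither did any other of the 14239 genes tested (0.0% called at each time), so the count of members says nothing particular to them. Unadjusted p-values under 0.05 were found for 1243 genes at 1 d, 594 at 3 d and 476 at 7 d, and DESeq2 called 9, 1 and 0 genes. The 3 comparisons share the same 4 sham samples. Values below are CPM after TMM normalization.

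Gabbr1 was at 90.3 CPM (sample 10), 133 CPM (Xin), 138 CPM (4) and 140 CPM (18) in sham, and at 135, 139, 182 and 205 CPM in the SNC 1 d samples 16, 13, 17-1 and 17-2. The upper pair of SNC 1 d samples lay above every sham sample, and the lower pair within the sham range. The upper pair, 17-1 and 17-2, held 24 cells each and shared a day of reverse transcription. Whether they were independent preparations was not given. The means were 125 ± 23.6 CPM (n = 4) and 165 ± 34 CPM (n = 4), a log2 fold change of 0.40 ± 0.16 (SE, edgeR adjusted p = 0.537). SNC 3 d samples held 135, 146 and 162 CPM and SNC 7 d samples 123, 126, 133, 146 and 170 CPM, with log2 fold changes of 0.24 ± 0.17 (adjusted p = 0.966) and 0.16 ± 0.15 (adjusted p = 1.00).

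Gabbr2 was at 76.5 CPM (Xin), 122 CPM (10), 142 CPM (4) and 167 CPM (18) in sham. SNC 1 d samples held 132, 145, 149 and 181 CPM, SNC 3 d samples 152, 154 and 170 CPM, and SNC 7 d samples 112, 115, 135, 136 and 144 CPM. All groups overlapped, and the low end of sham was sample Xin. The log2 fold changes were 0.25 ± 0.18 at 1 d, 0.31 ± 0.19 at 3 d and 0.01 ± 0.17 at 7 d (adjusted p = 0.700, 0.966 and 1.00).

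Gabra2 was at 43.6 CPM (Xin), 74.3 CPM (18), 100 CPM (10) and 126 CPM (4) in sham. SNC 1 d samples held 40.4, 51.9, 65.6 and 77.9 CPM, SNC 3 d samples 61.8, 72.5 and 112 CPM, and SNC 7 d samples 47.7, 48.6, 96.8, 111 and 120 CPM. The groups overlapped at each time. The log2 fold changes were -0.55 ± 0.34 at 1 d (adjusted p = 0.658), -0.07 ± 0.37 at 3 d (adjusted p = 0.998) and -0.02 ± 0.32 at 7 d (adjusted p = 1.00).

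Gabra5 was at 21.9 CPM (Xin), 37.9 CPM (4), 52.8 CPM (10) and 62.4 CPM (18) in sham. SNC 1 d samples held 33.6, 69.4, 73.7 and 89.0 CPM, SNC 3 d samples 43.1, 43.4 and 58.6 CPM, and SNC 7 d samples 20.1, 53.0, 61.3, 66.8 and 116 CPM. At 1 d, 3 of 4 samples lay above every sham sample, and sample 13 lay within the sham range. The log2 fold changes were 0.58 ± 0.41, 0.13 ± 0.44 and 0.52 ± 0.39 (adjusted p = 0.699, 0.994 and 1.00).

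Gabrg1 was at 3.66 CPM (Xin), 29.7 CPM (18), 33.0 CPM (10) and 33.7 CPM (4) in sham. SNC 1 d samples held 6.15, 15.0, 15.5 and 27.6 CPM, SNC 3 d samples 16.3, 20.7 and 29.9 CPM, and SNC 7 d samples 4.07, 21.1, 23.6, 38.0 and 67.9 CPM. The 3 lowest samples of all 16, Xin, 19-2 and 17-1, were the only ones with no cell in cluster 3, where Gabrg1 was concentrated, and the highest, SNC 7 d sample 8, had the largest share of such cells (27.1%). The log2 fold changes were -0.65 ± 0.64, -0.19 ± 0.69 and 0.28 ± 0.61 (adjusted p = 0.798, 0.995 and 1.00). Gabrb2 had too few counts to be tested, with 0 to 0.996 CPM in sham samples and 0 to 0.838 CPM in SNC samples.

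**Figure D2:**
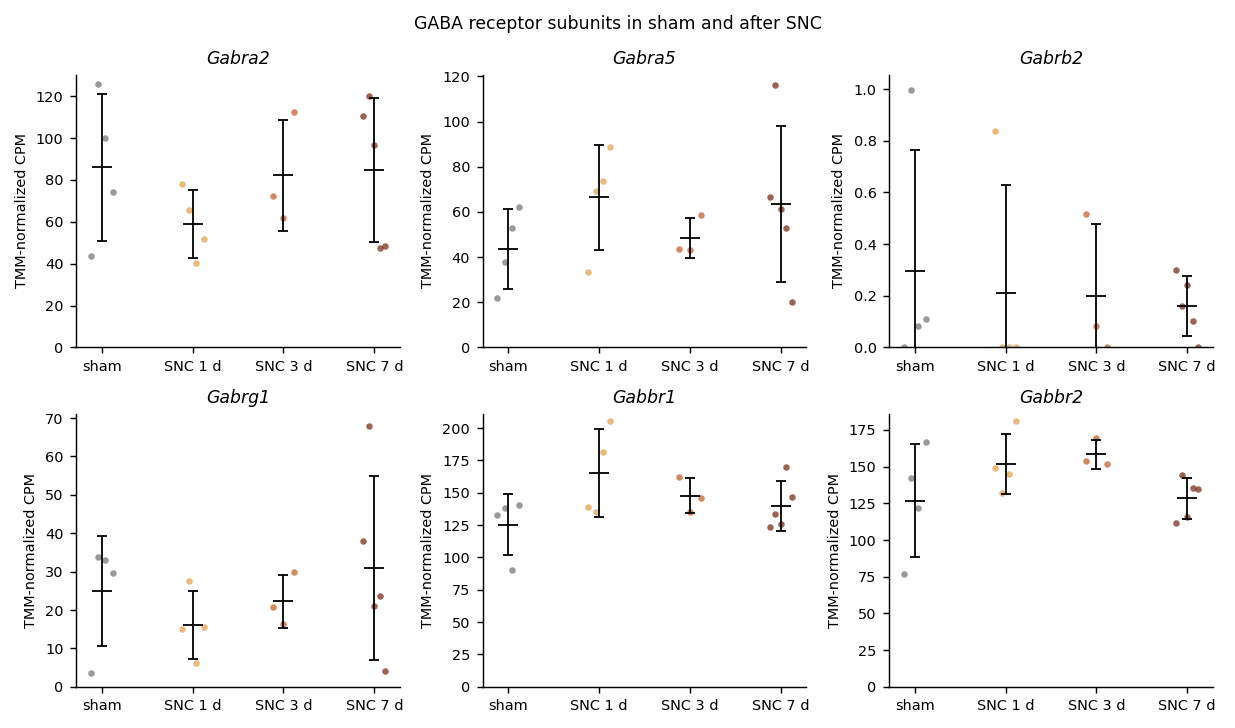
TMM-normalized CPM (y axis) of each of the 6 genes in the DRG samples of labelled sham, SNC 1 d, 3 d and 7 d (x axis). Points are samples and bars are means with SD. The groups overlap for every gene, and Gabrg1 ranges from 3.66 to 67.9 CPM over the 16 samples.

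The median log2 fold change of the 5 members tested was 0.25, 0.13 and 0.16 at 1, 3 and 7 d, beside -0.0059, -0.0049 and -0.0061 for all genes tested. Exact two-sided permutation tests on log2 levels, 18 in all, gave no raw p under 0.143 (Gabbr1 at 1 d) and no adjusted p under 0.926. Their smallest possible raw p was 0.0286, 0.0571 and 0.0159 at 1, 3 and 7 d, so that the 3 d comparison could not reach 0.05. After adjustment over the 18 tests, a single member could not reach 0.05 at any time. These tests therefore cannot show that a member stayed the same. No gene of the GABA-related lists was called at any time, whether other GABA-A and rho subunits (8 tested), GABA synthesis (2), receptor clustering and trafficking (16), chloride transport (9) or GABA-B partners (10). Samples were reverse transcribed in 2 successive years, and the members' differences at 7 d were not the same in both. In the earlier year (3 SNC against 3 sham samples) the mean log2 differences were 0.40 for Gabra2, 1.12 for Gabra5, 1.15 for Gabrg1, 0.11 for Gabbr1 and 0.16 for Gabbr2, whereas in the later year (2 samples against the single sham sample 18) they were -0.61, -0.91, -1.46, 0.17 and -0.30. All SNC 1 d and 3 d samples were from the later year. Against sham sample 18 alone, the differences at 1 d were -0.37 for Gabra2, 0.0042 for Gabra5, -1.01 for Gabrg1, 0.21 for Gabbr1 and -0.15 for Gabbr2, and at 3 d 0.10, -0.38, -0.44, 0.07 and -0.08.

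Within neuron types, SNC was compared with sham in NF-like, PEP1-like, PEP2-like and SST-like neurons, since the NP-like, PEP3-like and cold-like types had too few samples. None of the members was called in any type at any time, beside 0.0% of the genes tested in NF-like, PEP2-like and SST-like neurons and 0.00942% in PEP1-like neurons at 1 d and 3 d. In NF-like neurons at 1 d, Gabra2 had a log2 fold change of -0.71 ± 0.36 and Gabrg1 of -1.22 ± 0.69 (both adjusted p = 0.957). In PEP1-like neurons at 1 d, Gabbr1 had 0.52 ± 0.25 (adjusted p = 0.466) and Gabra2 -0.86 ± 0.43 (adjusted p = 0.493). Gabra5 had its largest values at 3 d, with 1.77 ± 0.66 in PEP2-like neurons (adjusted p = 0.638) and 2.34 ± 0.85 in SST-like neurons (adjusted p = 0.818).

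Neurons of the same SNC sample were then compared by their own Sprr1a level, because the dye of a cell was not given. This level is a poor stand-in for a crushed axon here. Sprr1a-high cells made up 22.9% to 79.2% of labelled sham samples and 20.8% to 64.6% of SNC samples. In 19-1 (20.8%) and 19-2 (58.3%) the shares ran against the labelled numbers of directly injured cells. The classes are thus not crushed against uncrushed neurons. Of 715 SNC cells, 335 were Sprr1a-high (at least 100 CPM) and 380 Sprr1a-low, and 188 lay between 50 and 200 CPM. All 12 SNC samples held at least 5 cells of each class, and the sample was a block in the test. Of the 5 members tested, 3 were called, beside 27.2% of all 12110 genes. Gabbr2 and Gabra2 were lower in Sprr1a-high neurons (13.9% of all genes were called lower) and Gabra5 was higher (13.3% were called higher). The median log2 fold change was 0.08 over the members and -0.0068 over all genes. Gabrb2 was again too low to be tested (0.139 against 0.212 CPM).

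Gabbr2 differed most clearly. The lowest, median and highest Sprr1a-high levels over the 12 samples were 89.9, 114 and 177 CPM, and the Sprr1a-low levels 140, 171 and 210 CPM. Sprr1a-high neurons were lower in 12 of 12 samples (3.9% of all genes were lower in every sample), with the smallest gap in sample 17-2 (177 against 187 CPM) and the largest in 17-1 (109 against 210 CPM). The means were 116 ± 23.1 and 173 ± 22.7 CPM (SD, n = 12), a log2 fold change of -0.59 ± 0.06 (SE, edgeR adjusted p = 3.88e-06). The mean log2 difference was -0.54 ± 0.36 at 1 d (n = 4), -0.61 ± 0.06 at 3 d (n = 3) and -0.60 ± 0.20 at 7 d (n = 5). It ran from -0.63 to -0.56 when each sample was left out.

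Gabra2 was also lower in Sprr1a-high neurons, at 32.5, 58.4 and 121 CPM (lowest, median and highest sample) against 46.1, 76.0 and 138 CPM. The direction held in 10 of 12 samples and not in the SNC 7 d samples 19-1 and 8. The means were 63.6 ± 24.7 and 87.1 ± 33.6 CPM (n = 12), a log2 fold change of -0.45 ± 0.10 (adjusted p = 0.00409).

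Gabra5 was higher in Sprr1a-high neurons, at 31.6, 61.4 and 140 CPM against 7.61, 52.8 and 93.6 CPM, in 9 of 12 samples. The means were 73.8 ± 35.8 and 52.2 ± 24.0 CPM (n = 12), a log2 fold change of 0.53 ± 0.19 (adjusted p = 0.0488). This call was weak, since it was lost when any of 9 of the 12 samples was left out (adjusted p from 0.0205 to 0.0965), had a log2 fold change of 0.09 when cells were thinned to equal depth, and turned to -0.74 (adjusted p = 0.00043) with a limit of 300 CPM of Sprr1a.

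Gabrg1 did not differ detectably (23.1 ± 21.4 against 21.3 ± 13.7 CPM, log2 fold change 0.08 ± 0.31, adjusted p = 0.890), but was called lower with the limit of 300 CPM (log2 fold change -2.12, adjusted p = 2.1e-05). At that limit no SNC sample had 3 or more NF-like cells in both classes, so neither Gabrg1 nor Gabra5 could be compared within NF-like neurons. With the limit of 100 CPM, Gabrg1 within NF-like neurons had a log2 fold change of 0.37 and was not called. Gabbr1, the partner of Gabbr2, was at 161 ± 37.3 against 147 ± 26.7 CPM (log2 fold change 0.12 ± 0.07, adjusted p = 0.253). Only in the fit with the limit of 30 CPM was Gabbr1 called, at 0.20 (adjusted p = 0.0229). Without the sample block, Gabbr2 alone was called.

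**Figure D3:**
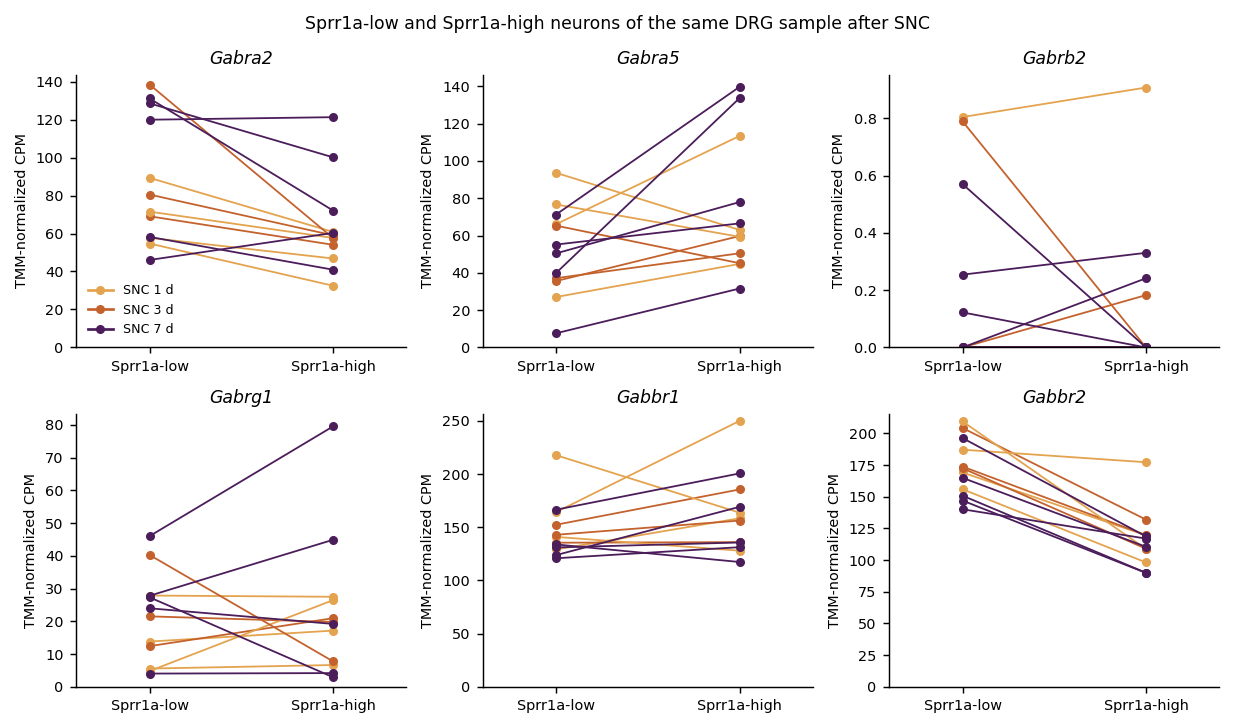
TMM-normalized CPM (y axis) of the 6 genes in Sprr1a-low and Sprr1a-high neurons (x axis) of the 12 SNC samples. Each line joins the 2 classes of a sample and is coloured by the day after SNC. All 12 Gabbr2 lines go down and 10 of 12 Gabra2 lines do.

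The classes also differed in neuron type. Sprr1a-high cells made up 75.6% of PEP1-like and 69.5% of PEP2-like SNC neurons, 39.7% and 41.8% of NF-like clusters 3 and 4, 49.1% of SST-like cluster 5, and 6.10%, 2.44% and 2.38% of PEP3-like, NP-like and SST-like cluster 7 neurons. In labelled sham the shares were 57.7%, 66.7%, 26.1%, 21.1%, 57.9%, 0%, 0% and 0% in this order. In cold-like neurons the share was 40.9% after SNC and 85.7% in labelled sham (7 cells). The classes thus also differed in neuron type without the crush. PEP1-like and PEP2-like neurons had the lowest Gabbr2 levels and NP-like and cluster 7 neurons the highest, so the comparison was repeated within types. There, Gabbr2 had a negative log2 fold change in all 4 types fitted, but was called only in SST-like neurons. How many of all genes kept a direction over the types, or over as many samples within a type, was not counted. The directions within types, here and below, thus say nothing particular to the members. In NF-like neurons (9 samples, 4.35% of 10598 genes called), Gabbr2 was at 144 ± 42.1 against 197 ± 41.7 CPM (-0.47 ± 0.13, adjusted p = 0.0558), lower in 8 of 9 samples. In PEP1-like neurons (7 samples, 0.214% of 8887 genes called), it was at 82.1 ± 13.3 against 109 ± 27.9 CPM (-0.40 ± 0.14, adjusted p = 0.488), lower in 6 of 7 samples.

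In PEP2-like neurons (6 samples, 1.49% of 8279 genes called), Gabbr2 was at 97.1 ± 20.5 against 149 ± 53.0 CPM (-0.55 ± 0.16, adjusted p = 0.0847), lower in 5 of 6 samples. In SST-like neurons (4 samples, 10.2% of 8672 genes called), it was at 126 ± 15.6 against 198 ± 63.8 CPM (-0.61 ± 0.18, adjusted p = 0.0442), lower in 3 of 4 samples. In that type, however, the classes largely followed clusters 5 and 7, and the call was lost without sample S, 9 or 15 (-0.59, -0.62 and -0.39).

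Gabra2 was called lower in PEP2-like neurons, where Sprr1a-high neurons held 18.7, 49.1 and 76.9 CPM (lowest, median and highest of 6 samples) and Sprr1a-low neurons 52.2, 114 and 154 CPM. It was lower in 6 of 6 samples, with means of 49.1 ± 20.4 and 108 ± 36.9 CPM and a log2 fold change of -1.06 ± 0.25 (adjusted p = 0.0278). The call was lost without sample 13 (-0.84), 14 (-1.08) or 15 (-0.90), and with Sprr1a limits of 30 CPM (-0.84) and 300 CPM (-0.79). In SST-like neurons Gabra2 was at 75.9 ± 39.2 against 115 ± 55.1 CPM (-0.62 ± 0.18, adjusted p = 0.0474), lower in 4 of 4 samples, a call lost without any of the 4 samples. In NF-like neurons it was at 101 ± 40.5 against 147 ± 49.4 CPM (-0.53 ± 0.19, adjusted p = 0.136), and cluster 3 alone gave -0.06.

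Gabra5 went in different directions by type. In NF-like neurons it was at 143 ± 34.9 against 107 ± 41.0 CPM (0.50 ± 0.14, adjusted p = 0.0674), higher in 7 of 9 samples, and it was called with the limit of 30 CPM (1.00, adjusted p = 0.0236). In PEP2-like neurons it was at 18.4 ± 14.8 against 36.8 ± 27.4 CPM (-0.88 ± 0.37, adjusted p = 0.341). The difference between types was not tested. Gabrg1 in PEP1-like neurons was at 5.74 ± 2.84 against 14.9 ± 12.0 CPM (-1.14 ± 0.44, adjusted p = 0.608).

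By Sprr1a level in finer steps, SNC neurons were divided into cells under 10 CPM of Sprr1a (188 cells), 10 to under 100 CPM (192 cells) and 100 to under 1000 CPM (333 cells). Over these steps Gabbr2 was at 175 ± 20.0, 164 ± 34.2 and 115 ± 25.2 CPM (SD over 11, 11 and 12 samples), so that the lower level appeared in the upper step. Gabra2 was at 97.1 ± 40.6, 84.5 ± 35.1 and 63.1 ± 26.1 CPM. Gabra5 was at 33.4 ± 22.1, 69.6 ± 23.2 and 73.6 ± 37.4 CPM, so that its step lay at the low end, between the cells with the least Sprr1a and the others. Gabrg1 was at 13.8 ± 10.4, 27.6 ± 20.5 and 23.1 ± 22.1 CPM, and Gabbr1 at 126 ± 30.6, 163 ± 30.0 and 159 ± 40.3 CPM. The steps were not divided by neuron type, in which Sprr1a classes differed, and the part of neuron type in them was not tested.

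Labelled sham neurons followed a similar course for Gabbr2, at 167 ± 23.0, 138 ± 24.9 and 84.5 ± 35.7 CPM (3, 4 and 4 samples). Divided into 2 classes, Sprr1a-high sham neurons had less Gabbr2 in 4 of 4 samples (85.9 ± 31.2 against 143 ± 24.4 CPM, log2 fold change -0.77, adjusted p = 0.0626), and no member was called there, beside 233 of all genes. How many of all genes were lower in all 4 sham samples was not counted, so this direction says nothing particular to Gabbr2.

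**Figure D4:**
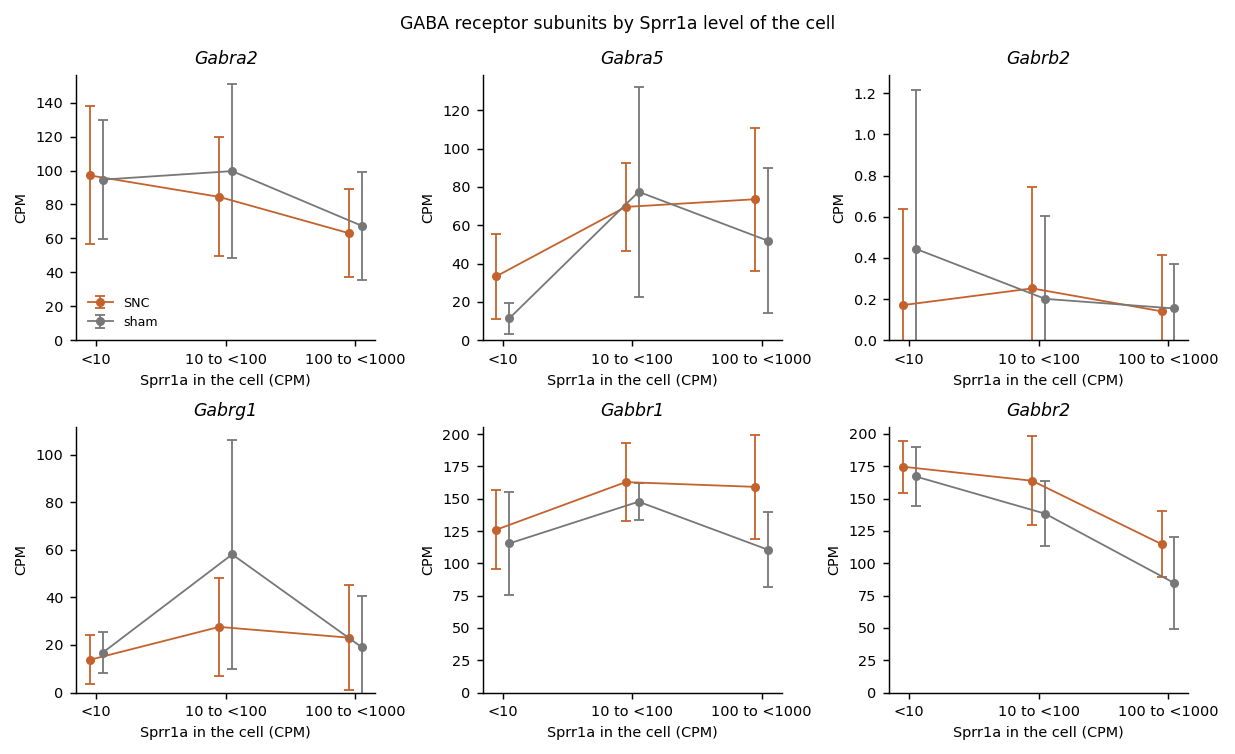
Mean CPM with SD over samples (y axis) of the 6 genes in neurons by Sprr1a level (x axis, under 10, 10 to under 100 and 100 to under 1000 CPM), SNC in orange and labelled sham in grey. Gabbr2 goes from 175 to 115 CPM in SNC and from 167 to 84.5 CPM in sham.

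Of 43 other genes of GABA signalling tested between the Sprr1a classes, 10 were called (23.3%), beside the 27.2% of all genes. Of 7 other GABA-A and rho subunits tested, 1 was higher and 1 lower. The β1 subunit gene Gabrb1 was the higher one, at 15.0 ± 13.0 against 7.43 ± 5.61 CPM in 10 of 12 samples (log2 fold change 1.08 ± 0.37, adjusted p = 0.0403). Of 9 chloride transport genes, Slc12a2, the importer (NKCC1) that keeps internal chloride high, was lower at 54.8 ± 15.1 against 86.7 ± 21.5 CPM in 11 of 12 samples (-0.68 ± 0.09, adjusted p = 4.86e-05), and Ano1, a calcium-activated chloride channel, was higher (1.52 ± 0.47, adjusted p = 0.0248).

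Of 15 clustering and trafficking genes, 3 were lower, among them Gphn (gephyrin, the scaffold of inhibitory synapses, -0.35) and Gabarapl2 (-0.21), and Zdhhc3, a palmitoyltransferase, was higher (0.15). Of 10 GABA-B partners and effectors, the G protein subunit genes Gnai1 (-0.74) and Gnao1 (-0.21) were lower. The medians of these lists, 0.16, 0.07, -0.05 and -0.0005 in this order, lay near the -0.0068 of all genes. Besides Sprr1a, which defined the classes, all 6 injury genes tested were higher, by a median of 0.94. Of the 10 glial markers 8 were tested and 2 were higher (Mbp 0.35, Pmp22 0.20). The summed glial level had a median of 1122 CPM in Sprr1a-high neurons and 1003 CPM in Sprr1a-low neurons. Its part in the differences was not tested.

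Lastly, added sham libraries were compared with the labelled sham samples. The GABA-B subunits were higher in added sham and no other member was called, so that 2 of 6 members were called, beside 40.6% of all 15791 genes (24.2% higher, 16.5% lower). Gabbr1 was at 91.7, 132, 142 and 150 CPM in the labelled sham samples 10, Xin, 4 and 18, and between 271 (S7) and 381 CPM (S4) in the 7 added sham libraries, with a median of 334 CPM. Gabbr2 was at 76.0, 124, 146 and 179 CPM in labelled sham and between 257 and 432 CPM in added sham, with a median of 343 CPM. The groups did not overlap for either gene (28.1% of all genes did not overlap). The log2 fold changes were 1.38 ± 0.15 for Gabbr1 (adjusted p = 6.49e-05) and 1.41 ± 0.21 for Gabbr2 (adjusted p = 0.000295).

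Gabra5 went the other way without being called by edgeR. Added sham libraries held 0 (S1), 0.563 (S2), 10.9, 12.1, 12.5, 17.8 and 21.2 CPM, every one under the lowest labelled sham sample (21.8 to 66.9 CPM). The log2 fold change was -2.07 ± 0.84 (adjusted p = 0.0641), and it was called without library S1 (adjusted p = 0.0222). The exact two-sided permutation test gave p = 0.00606, the smallest that 330 splits allow (0.0121 adjusted over 6 tests, 7 against 4 samples). Gabbr1 and Gabbr2 had the same p in this test, as has any gene whose groups do not overlap. Of all genes, 10.9% were lower in added sham without overlap, so this p is not particular to Gabra5. S1 and S2 were the libraries without NF-like cells. Gabra2 ranged from 22.0 to 88.3 CPM in added and from 43.3 to 130 CPM in labelled sham (-0.64 ± 0.35, adjusted p = 0.164), and Gabrg1 from 0.501 to 26.99 and from 3.63 to 34.6 CPM (-1.16 ± 0.79, adjusted p = 0.254). Gabrb2 was at 0.244 to 1.94 against 0 to 1.02 CPM (1.26 ± 0.87, adjusted p = 0.265), and was called only without sham sample 4 (3.01, adjusted p = 0.0294).

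**Figure D5:**
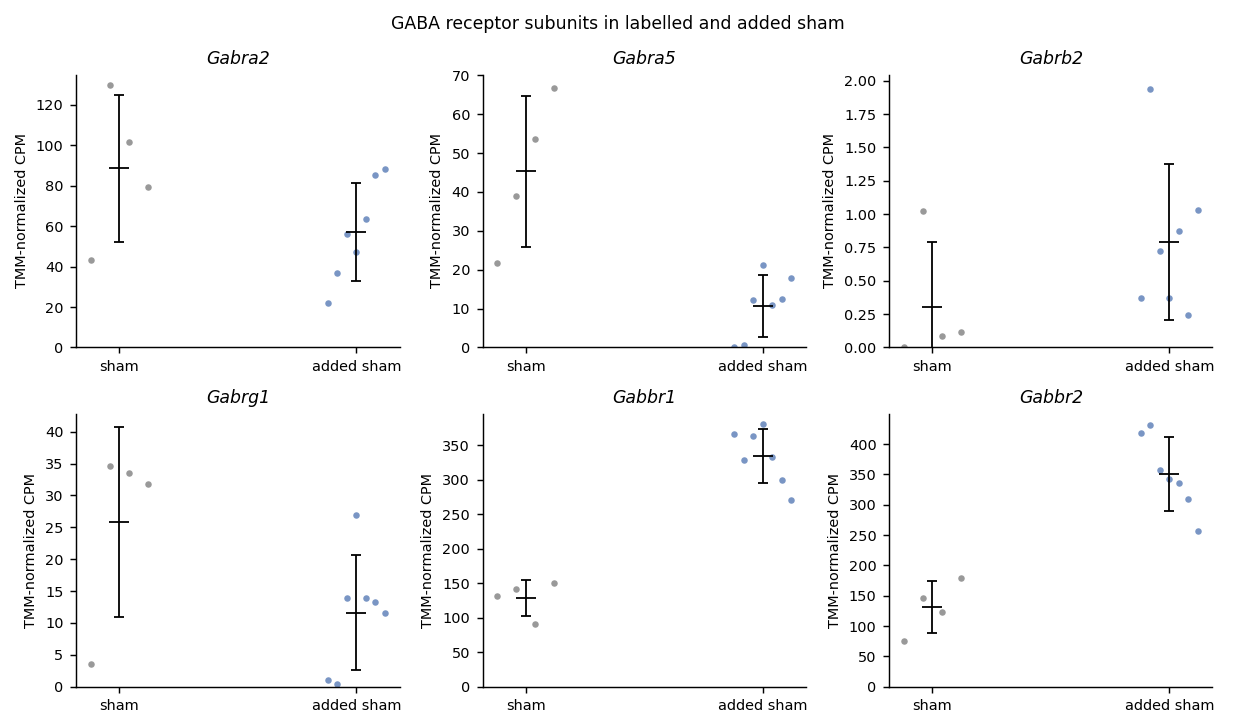
TMM-normalized CPM (y axis) of the 6 genes in the 4 labelled sham samples and the 7 added sham libraries (x axis), with means and SD. Gabbr1 and Gabbr2 lie higher in every added sham library, and Gabra5 lies lower in each of them.

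The median log2 fold change was 0.31 over the members and 0.15 over all genes. Of 10 other GABA-A and rho subunits tested, 2 were higher, among them Gabrr3 (3.78, adjusted p = 0.00182), and 2 were lower, among them Gabrb1 (-2.17, adjusted p = 0.00458). Gabrr3 was low in both sets, with pooled levels of 0.116 CPM over all labelled neurons and 0.883 CPM in added sham. Of 12 GABA-B partners and effectors 5 were higher and none lower, among them Kcnj5, a potassium channel opened by G proteins (6.09), and the calcium channel genes Cacna1a (1.67) and Cacna1b (1.30). Of 9 chloride transport genes 5 were higher, among them Slc12a2 (1.75), and of 16 clustering and trafficking genes 8 were higher and 3 lower. All 7 injury genes tested were lower. By cluster, mean Gabbr1 ran from 305 to 572 CPM in added sham and from 113 to 195 CPM in labelled neurons, SNC cells included. Mean Gabbr2 ran from 282 to 446 CPM and from 90.0 to 246 CPM. The part of neuron types in the differences was not tested. Dye labelling and library preparation cannot be told apart in this comparison.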

How the data were processed

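Per the labels and the methods, the authors aligned reads with STAR to Rnor_6.0, and counted UMIs per gene and cell with featureCounts (Subread), SAMtools and UMI-tools. The deposited values are whole UMI counts, which were used as deposited. The labels and methods disagree on which dye marks crushed branches, and at least 5 rats were used per time point, none tied to a sample.

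Quality control kept cells in which 500 genes or more and 1000 UMIs or more were found, with a mitochondrial share under 5% (930 of 936 labelled, 503 of 528 added sham). Group medians were 214660 to 340145 UMIs per cell, and low counts carry counting error. Libraries of sample S were summed. No cell occurred in more than 1 library, and replicates of a group differed by more than counting error (chi-square over its degrees of freedom of 10.1 or more). Doublets were not called, since cells were picked by hand. Clustering used Seurat 5.3.0 (2000 variable genes without Gabr and Gabbr genes, 40 components, resolution 0.5), separately for labelled and added sham cells. A cluster was named where at least 3 of a type's markers were 1.5-fold up and found in at least 25% of its cells, and either these were 50% of the type's markers or a marker was among its 10 leading genes (so PEP1-like, with 6 of 16 markers up and Kit and Arg1 leading). It stayed unnamed where 50% of glial markers were up. This rule was set after seeing the clusters. Neighbouring clusters differed beyond spread where the mean difference over shared samples exceeded its SD.

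Counts were summed per sample and tested with edgeR 4.0.16 (quasi-likelihood test, TMM, filterByExpr, Benjamini-Hochberg over all genes tested, called under 0.05). Alternatives were DESeq2 1.42.0, its size factors, no filter, thinning to 20000 UMIs, other Sprr1a limits, fewer samples, and a term for the year or day of reverse transcription. The exact permutation tests used log2(CPM + 1) in SciPy 1.17.1. The edgeR step was tested on simulated counts with known log2 changes of 1 to 2. For SNC 1 d against sham it found 35% of changes of 1 and 75.8% of changes of 2. For added sham it found 16.9% and 46.6%, and between Sprr1a classes 80.6% and 97.1%. A gene that was not called may therefore still differ.

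The members and gene lists were chosen with earlier results of these data known. Besides the members and Sprr1a, named genes were those of the GABA-related, injury and marker lists that passed an adjusted p of 0.05 (up to 5 at each end), each list's most abundant gene, and the 3 genes most correlated with each member. Values of other GABA receptor subunits by cluster were named after they were seen. The most abundant list genes were Gabarapl1 (628 CPM), App (549 CPM), Stk39 (231 CPM) and Aldh5a1 (25.1 CPM). Some genes that this rule names are not reported here. Protein sequences and coordinates were not used here.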

Additional observations from a re-analysis of the deposited data

Results flagged for a closer look

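In each group of 4 to 10 samples, 27 in all, the gap between an extreme sample and its nearest neighbour was set against the range of the group (Dixon's test at the 95% level), which chance exceeds in about 1 of 20 groups. It was exceeded 4 times. Gabrg1 was at 3.66 CPM in sham sample Xin, whose nearest neighbour had 29.7 CPM, and Xin held no cell of cluster 3. Gabbr1 was at 90.3 CPM in sham sample 10, whose nearest neighbour had 133 CPM. Gabrb2 was at 0.996 CPM in sham sample 4 (nearest 0.110 CPM) and at 0.838 CPM in SNC 1 d sample 13 (nearest 0 CPM), where a few cells carry most UMIs of this gene.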

How the results depend on the processing

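At 1 d, 3 d and 7 d after SNC, no member was called under any alternative, and most member values kept their direction. Those that turned were, with a term for the year, Gabra2 at 1 d (0.0429) and 3 d (0.52), Gabrg1 at 3 d (0.29) and Gabbr2 at 7 d (-0.0166); with a term for the day, Gabra2 (1.16) and Gabrg1 (1.30) at 3 d and Gabbr2 at 7 d (-0.0273); with 17-1 and 17-2, and 19-1 and 19-2, merged, Gabra2 (0.12) and Gabbr2 (-0.0132) at 7 d. Thinning turned Gabrg1 (-0.24) and Gabbr2 (-0.16) at 7 d. With at least 5 cells per sample, NF-like Gabra5 (-0.10 at 1 d, 0.13 at 7 d) and Gabbr2 at 7 d (0.0145) and PEP2-like Gabra2 (0.21), Gabbr1 (-0.20) and Gabbr2 (-0.0396) at 7 d turned. Leaving out each sample gave 7 d ranges of -0.17 to 0.17 for Gabbr2, -0.24 to 0.22 for Gabra2 and -0.22 to 0.56 for Gabrg1, and 3 d ranges of -0.40 to 0.17 for Gabra2 and -0.0828 to 0.35 for Gabra5.

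Between Sprr1a classes, members called were 3 in the main comparison, 1 without the sample block, 0 in labelled sham and 2 to 3 with a sample left out. A limit of 300 CPM turned Gabra5 (-0.74), Gabrg1 (-2.12) and Gabbr1 (-0.0082), and in labelled sham Gabrg1 (-0.58) and Gabbr1 (-0.18) turned. Within types, members called with a limit of 30 CPM were 1 in NF-like, 0 in PEP2-like and 1 in SST-like neurons, and 0 in PEP2-like neurons with 300 CPM. Gabbr1 turned in PEP2-like (-0.38 at 30 CPM, -0.46 at 300 CPM), SST-like (-0.0487 at 30 CPM) and PEP1-like neurons (0.0133 at 300 CPM). With a sample left out, counts were 0 to 1 in NF-like, 0 to 2 in PEP2-like and 0 to 1 in SST-like neurons, and ranges that crossed 0 were Gabrg1 over all neurons (-0.0944 to 0.28), Gabbr1 in PEP1-like (-0.0743 to 0.0278), PEP2-like (-0.0569 to 0.11) and SST-like neurons (-0.13 to 0.18), and Gabra5 in PEP1-like neurons (-0.37 to 0.058). The labelled sham and cluster 3 comparisons and the left-out samples within types were chosen after seeing the data.

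All genes called numbered 1915 without the block, 1423 after thinning and 233 in labelled sham, against 3297. In NF-like neurons they were 794 (30 CPM) and 66 (cluster 3 alone) against 461, and in PEP2-like neurons 42 (30 CPM) and 63 (300 CPM) against 123. After SNC, where the main fits called 0 or 1, the year term called 1 each at 1 d and 3 d, the day term 1 at 1 d and 3 at 3 d, and no filter or thinning called 1 at 3 d. DESeq2 called up to 4 in NF-like, 10 in PEP1-like, 13 in PEP2-like and 1 in SST-like neurons, and at least 5 cells per sample gave 2 in PEP2-like neurons at 1 d. Members called in added sham stayed at 2 to 3. NF-like neurons were highest for 5 of 6 members under other resolutions and for 4 after thinning, when Gabrb2 was highest in cold-like neurons. Gabbr2 was highest in SST-like neurons (180 CPM) at resolution 0.3, and in NP-like neurons otherwise. The cause of these shifts was not tested. SST-like neurons with at least 5 cells, and Sprr1a limits of 30 CPM in PEP1-like and 300 CPM in NF-like and SST-like neurons, left too few samples. No paired analysis was possible because the labels give no replicate numbers shared between sham and SNC groups. The term for the day, chosen after seeing the data, used that sham sample 4 shared its day of reverse transcription with SNC 7 d sample 8, and sham sample 10 with SNC 7 d sample 9. SNC 3 d samples 14 and 15 were alone on their days, so the 3 d values with this term rested on sample 17-3 alone. That sample was tied to sham only through SNC 7 d samples 19-1 and 19-2, which shared its day. With all samples, Gabrb2 counts were under the filter after SNC or between Sprr1a classes.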
